A study of Mus musculus with 2 samples.

Results

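The G1 cyclins, their kinases, the INK4 inhibitors and the RB switch were described by 10 genes, Ccnd1, Ccnd2, Ccnd3, Cdk4, Cdk6, Cdkn2a, Cdkn2b, Rb1, Ccne1 and E2f1, out of 55416 genes in the table. They were taken by name, because SMARCB1 is known to act on cyclin D1 and CDKN2A, and each matched 1 Ensembl gene. Bulk RNA-seq had been performed on 2 rhabdoid tumors (RT) from Dppa3-cre::Smarcb1 mice, 1 labelled intracranial (IC library) and 1 labelled extracranial (EC library), and the labels class both as MYC. The paper shows stained tumors of this model beside the trigeminal nerve and in the maxillary region. It does not say whether these were the ones sequenced. The mice carried, per the methods, 1 floxed and 1 intact Smarcb1 allele (Smarcb1 Fl/+) on a C57BL/6 background, with Cre placed behind the Dppa3 gene. The paper uses them as a model for loss of Smarcb1 in primordial germ cells. Recombination can occur in whatever else uses that promoter, and where it began cannot be read from these counts. No treatment was described, and the age of the mice is not given in the sources used here. Each tumor was a piece of fresh frozen tissue with its host cells, each location had 1 library, and no normal tissue was sequenced with them, so levels can be compared between the 2 libraries but not with unaffected cells.

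A cell enters the division cycle when D-type cyclins bind CDK4 or CDK6 and phosphorylate the retinoblastoma protein RB, which then lets go of E2F factors. E2F factors switch on cyclin E and the genes of DNA replication. The INK4 proteins encoded by Cdkn2a and Cdkn2b block CDK4 and CDK6, and Cdkn2a also encodes ARF, which acts on p53 instead. In rhabdoid tumors this circuit is known as a place where the loss of SMARCB1 is felt, through cyclin D1 and the INK4 inhibitor of the CDKN2A locus.

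The libraries held 34545846 (IC) and 26915696 (EC) counts. Levels are given as CPM, the counts scaled to a common library size, or, where genes are compared with each other, as CPM per kilobase of summed exon length, with exact 95% Clopper-Pearson intervals that cover counting error only. Reads were not marked by molecular identifiers, and with 1 library per location there is no replicate check of any difference and no p-value. Smarcb1, the targeted gene, had 365 counts (10.5 CPM) in the IC library and 530 counts (19.8 CPM) in the EC library. A count cannot separate the floxed allele from the intact one, or tumor cells from host cells. The paper reports that the stained tumors of this model had lost the protein of the targeted gene. Whether tumor cells added to these counts was not tested. Of 5 genes taken as markers of extracranial RT cells (Tnn, C1qtnf3, Prelp, Tlx2 and Postn), 5 were lower in the EC library. Their log2 ratios ran from -4.92 to -0.89, and 11650 of all 21977 genes tested had a ratio below 0. This list was added after the values were seen, so its choice was open to them and no conclusion is drawn from it. Of the 5 genes, the text of the paper names Postn as strongly expressed by extracranial RT cells. Postn had the ratio of -0.89, the one nearest to an equal ratio. The libraries are called by their labels and not by what their cells may be.

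The INK4 genes lie beside each other on chromosome 4, and Cdkn2a is read from 2 starts, the upstream one leading to ARF and the downstream one to the INK4 protein. Both share later exons, so the single count of Cdkn2a sums them. The stretches before these 2 starts and before the start of Cdkn2b are shown because the transcripts counted for both genes start there, and because Cdkn2a and Cdkn2b differed in opposite directions. They run from 250 to 51 bases upstream of the RefSeq start, 5′ to 3′ on the minus strand of GRCm38.p6, at chr4:89282243-89282442, chr4:89294670-89294869 and chr4:89311083-89311282. Capitals mark the letters TTTCCCGC, TTTCGCGC, TTTGCCGC or TTTGGCGC, which E2F factors are known to bind, searched on both strands.
Cdkn2a, downstream start: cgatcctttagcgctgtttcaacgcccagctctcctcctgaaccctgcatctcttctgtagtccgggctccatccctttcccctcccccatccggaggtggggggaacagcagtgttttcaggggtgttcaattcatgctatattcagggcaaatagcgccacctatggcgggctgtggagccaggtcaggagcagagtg
Cdkn2a, upstream start: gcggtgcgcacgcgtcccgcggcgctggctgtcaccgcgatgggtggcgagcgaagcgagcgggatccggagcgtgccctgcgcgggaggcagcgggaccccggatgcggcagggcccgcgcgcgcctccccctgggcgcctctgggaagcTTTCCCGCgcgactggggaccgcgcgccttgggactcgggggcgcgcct
Cdkn2b: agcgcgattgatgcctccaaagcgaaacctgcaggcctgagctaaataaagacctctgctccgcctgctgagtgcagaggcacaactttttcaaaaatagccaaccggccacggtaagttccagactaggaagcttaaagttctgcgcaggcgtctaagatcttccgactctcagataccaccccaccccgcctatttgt
The E2F letters occurred once, at 99 bases before the upstream start of Cdkn2a. That start lies 12427 bases from the downstream start of the same gene and 16413 bases from the start of Cdkn2b. Among all 32851 promoter windows of 300 bases, 2.26% held these letters, and of the 9 windows available for 7 of the 10 genes, 1 did. The window of E2f1 is among these 9 but lies inside the gene as GENCODE draws it, so the stretch before that start was not searched. GC content of the 3 stretches, in the order shown, was 57.5%, 79.0% and 52.0%. A match describes letters in the sequence and not a site in use, and the counts do not bear on it.

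All 10 genes were expressed well above the floor of 3 counts in both libraries, which stands for 0.0863 CPM (IC) and 0.112 CPM (EC). In the IC library the highest was Ccnd1, the gene of cyclin D1, at 77.0 CPM per kilobase (75.7 to 78.4), above 96.8% of the 16543 protein-coding genes detected in either library. Cdk4 at 41.1, Cdkn2a at 25.0 and Ccnd2 at 14.6 CPM per kilobase followed, with intervals that did not touch. Ccnd3 (7.56), Cdkn2b (7.18) and E2f1 (6.77) lay next, and neighbors in this trio did not differ beyond counting error. Cdk6 (5.26), Rb1 (3.43) and Ccne1 (2.35) were the lowest, and Ccne1 still stood above 42.5% of those genes.

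In the EC library Cdk4 was highest at 59.6 CPM per kilobase (58.0 to 61.2), ahead of Ccnd1 at 48.5. Cdkn2a (38.2) and Ccnd2 (36.9) came next and were not separated by their intervals. The other 6 genes lay between 3.31 (Cdkn2b) and 8.34 (E2f1), with Rb1 at 6.55, Cdk6 at 5.36, Ccnd3 at 4.98 and Ccne1 at 4.07 CPM per kilobase. Cdk6 and Ccnd3 overlapped in their intervals, and so did Ccne1 and Cdkn2b. The order rests on the length used. Ccnd3 has 21 annotated transcripts, which cover 8775 bases, whereas its longest coding transcript has 2113 bases, and per kilobase of that transcript it ranked 5 instead of 8 in the EC library and 4 instead of 5 in the IC library.

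**Figure D1:**
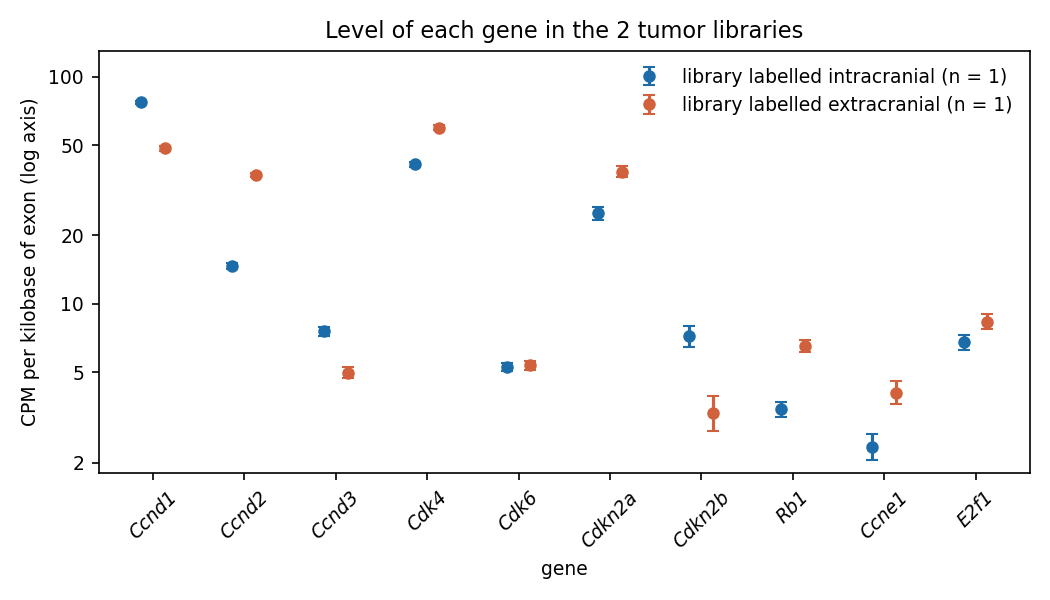
Level of each of the 10 genes in CPM per kilobase of summed exon length (log axis) in the library labelled intracranial and the library labelled extracranial, 1 library each; points are levels and bars are exact 95% counting intervals. Ccnd1 leads in the former at 77.0 and Cdk4 in the latter at 59.6, and Ccnd2 shows the widest gap upward, from 14.6 to 36.9.

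Which of these genes differed between the tumors was asked next, with the ratio EC over IC and its exact conditional binomial interval. Ccnd2 (ENSMUSG00000000184, chromosome 6), the gene of cyclin D2, was the single gene of the 10 whose whole interval lay beyond 2-fold. It had 4784 counts (138 CPM, 134 to 142) in the IC library and 9282 counts (347 CPM, 340 to 354) in the EC library, a ratio of 2.52-fold (2.43 to 2.61) or 1.33 on the log2 scale. This call covers counting error only and was lost, leaving 0 of the 10, when the interval was widened for an assumed coefficient of variation of 0.4 between animals. Across 21977 genes with 10 or more counts, 15.6% were called by the same rule, 5.86% higher and 9.77% lower in the EC library. Among the 10 genes, 1 was higher and 0 were lower, a share near that background. Beyond 4-fold there was none of the 10, against 7.19% of all genes.

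The other D-type cyclins went the opposite way. Ccnd1 (ENSMUSG00000070348, chromosome 7) had 12607 and 6108 counts, or 363 CPM (357 to 369) in the IC library and 228 CPM (223 to 234) in the EC library, and was thus 1.59-fold lower (1.54 to 1.64) in the latter. Ccnd3 (ENSMUSG00000034165, chromosome 17), the gene of cyclin D3, had 2305 and 1169 counts, with levels of 66.3 and 43.7 CPM, and was 1.52-fold lower (1.41 to 1.63). Their intervals lay apart from an equal ratio but inside 2-fold.

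Makeup within the family is a ratio inside a library and does not depend on how libraries are scaled. Per kilobase, Ccnd1 was at 5.27 (5.09 to 5.44) times the level of Ccnd2 in the IC library and at 1.31 (1.27 to 1.36) times in the EC library. The ratio of Ccnd1 to Ccnd2 in the EC library was accordingly 0.250 (0.238 to 0.262, exact conditional odds ratio) of that in the IC library, and the ratio of Ccnd2 to Ccnd3 was 3.83-fold higher (3.53 to 4.14). The ratio of Ccnd1 to Ccnd3 was 0.955 of its IC value, with an interval from 0.884 to 1.03 that holds an unchanged ratio. Ccnd2 made up 14.7% of the D-type cyclin CPM per kilobase in the IC library and 40.8% in the EC library, and with the longest coding transcripts 14.5% and 40.1%. The other shares depended on the length. With those transcripts Ccnd1 went from 77.6% to 64.6% (IC) and from 53.7% to 44.7% (EC). Ccnd3 went from 7.62% to 20.9% (IC) and from 5.51% to 15.1% (EC). The ratio of Ccnd2 to Ccnd3 in the IC library was 1.94 by summed exons and 0.693 by those transcripts. Summed over the family, D-type cyclins came to 567 and 619 CPM, a log2 ratio of only 0.13 (0.10 to 0.16). Per kilobase the same sum was 99.2 and 90.3, the reverse order, since Ccnd2 has the longest exons of the 3 in sum.

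**Figure D2:**
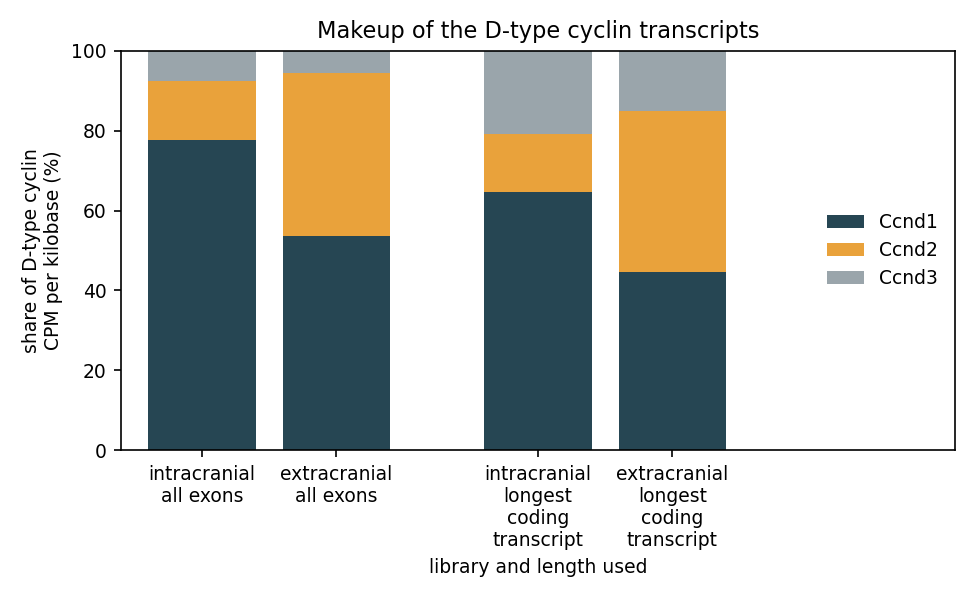
Share (%) of Ccnd1, Ccnd2 and Ccnd3 in the summed D-type cyclin CPM per kilobase in each library, with summed exon length (left pair of bars) and with the longest coding transcript (right pair); 1 library per bar. Ccnd2 takes 14.7% of the left intracranial bar and 40.8% of the extracranial bar beside it, and the right pair shows 14.5% and 40.1%.

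Markers of other cell types differed along with these values. Keratinocyte markers (Krt5, Krt14, Krt4, Krt13, Krt6a, Krt6b, Trp63 and Dsg3) summed to 24628 CPM in the IC library and 0.598 CPM in the EC library, where Krt5, Krt6a, Krt6b, Trp63 and Dsg3 had 0 counts. Macrophage markers summed to 5719 and 12765 CPM and were higher in the EC library for 8 of 8, as were endothelial markers for 6 of 6 (98.0 and 218 CPM). These counts mean that the whole interval lay above an equal ratio, beside 29.2% of all genes. Beyond 2-fold, 6 of the 8 and 2 of the 6 were called higher, beside 5.86% of all genes. T cell markers came to 12.2 and 30.8 CPM, B and plasma cell markers to 3.25 and 25.9 CPM, skeletal muscle markers to 44.5 and 9.42 CPM and Schwann cell markers to 219 and 149 CPM. The T cell markers were uneven. The whole interval was higher for Cd4, Cd8a and Trac but spanned an equal ratio for Cd3d (0.32), Cd3e (0.03) and Cd3g (0.18). Cd79b alone gave 22.7 of the 25.9 CPM of B and plasma cell markers, while Cd79a had 19 and 15 counts. Of 5 such genes tested, the interval was higher for 3 and spanned an equal ratio for 2. Neutrophil markers summed to 706 and 58.6 CPM but did not move together, since S100a8, S100a9, Cxcr2 and Retnlg were lower in the EC library whereas Csf3r was higher (19.9 and 57.6 CPM). Sox10 (Schwann cells), Retnlg and Myh4 (skeletal muscle) had 0 counts in the EC library. In a bulk piece of tissue, fewer cells of a type and less RNA per cell cannot be told apart. The part of these cells in the D-type cyclin ratios, or in those of the genes below, was not tested.

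The kinases bound by D-type cyclins showed a smaller gap. Cdk4 (ENSMUSG00000006728, chromosome 10) had 4640 and 5181 counts, 134 CPM (130 to 137) in the IC library and 194 CPM (188 to 199) in the EC library, and was 1.45-fold higher (1.39 to 1.51) in the latter. Cdk6 (ENSMUSG00000040274, chromosome 5) had 2555 and 2007 counts, which gave 73.5 and 75.0 CPM, and its log2 ratio of 0.03 (-0.06 to 0.11) did not differ from an equal ratio beyond counting error. Per kilobase Cdk6 came to 0.128 (0.122 to 0.134) of Cdk4 in the IC library and 0.0900 (0.0854 to 0.0947) in the EC library. Cdk4 therefore made up 88.7% and 91.7% of the CPM per kilobase of the pair, and the ratio of Cdk6 to Cdk4 in the EC library was 0.704 (0.655 to 0.755) of that in the IC library.

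The neighboring inhibitor genes Cdkn2a and Cdkn2b, whose upstream stretches are printed above, parted between the libraries. Cdkn2a (ENSMUSG00000044303, chromosome 4) had 1018 counts (29.3 CPM, 27.5 to 31.2) in the IC library and 1198 counts (44.8 CPM, 42.3 to 47.4) in the EC library, 1.53-fold higher (1.40 to 1.66) in the latter. Cdkn2b (ENSMUSG00000073802, chromosome 4) had 347 counts (9.99 CPM, 8.96 to 11.1) and 123 counts (4.60 CPM, 3.82 to 5.48), 2.17-fold lower (1.76 to 2.69) in the EC library. The ratio passed 2-fold but its interval did not, so Cdkn2b was not called. Set against each other, the ratio of Cdkn2b to Cdkn2a fell to 0.301 (0.239 to 0.378) of its IC value. Per kilobase Cdkn2b was 0.287 of Cdkn2a in the IC library and 0.0866 in the EC library. Mtap, a gene of methionine salvage on the same stretch of chromosome 4, was measured at 41.7 and 34.3 CPM (log2 ratio of -0.28, -0.40 to -0.16), and Dmrta1, on the other side, had 1 count in each library. Both inhibitor genes had 123 or more counts in each library, which does not tell tumor cells from host cells.

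RB and the genes it restrains come last in the circuit. Rb1 (ENSMUSG00000022105, chromosome 14) had 717 counts (20.6 CPM, 19.2 to 22.2) in the IC library and 1054 counts (39.4 CPM, 37.0 to 41.8) in the EC library, a ratio of 1.91-fold (1.73 to 2.10) whose interval crossed 2-fold. Rb1 shares 408 exonic bases with Lpar6 and 488 with Rcbtb2 on the opposite strand. These genes had log2 ratios of 1.31 (1.18 to 1.44) and 0.65 (0.55 to 0.75), in the same direction as the 0.93 (0.79 to 1.07) of Rb1, and the part of shared reads in it was not tested. Opposite-strand neighbors also touch Ccnd3 (Bysl, 361 bases, log2 ratio -0.59 against -0.60 for Ccnd3), Cdk4 (Tspan31, 641 bases, 0.09) and Ccnd1 (LTO1, 1100 bases, -0.10). Ccnd2 is touched by 9330179D12Rik (368 bases, 18 and 17 counts) and Gm43126 (372 bases, 0 counts in each library). Cdk6 is touched by Gm17590 (368 bases, 2 and 3 counts). Ccnd3 has a processed pseudogene, Ccnd3-ps, with 42 and 20 counts, so some of its reads could have been shared.

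Ccne1 (ENSMUSG00000002068, chromosome 7), the gene of cyclin E1, was the lowest of the 10 in CPM in the IC library, with 217 counts (6.25 CPM, 5.44 to 7.13), and had 290 counts (10.8 CPM, 9.63 to 12.2) in the EC library, 1.74-fold higher (1.45 to 2.08), again with 2-fold inside the interval. Relative to the summed counts of the D-type cyclins it was 1.59-fold higher (1.33 to 1.91) in the EC library. E2f1 (ENSMUSG00000027490, chromosome 2), which encodes an activating E2F factor, had 742 and 704 counts, 21.4 CPM (19.8 to 22.9) and 26.3 CPM (24.4 to 28.3), and was 1.23-fold higher (1.11 to 1.37). Because Rb1 differed more, the ratio of E2f1 to Rb1 was lower in the EC library, at 0.646 (0.560 to 0.744) of its IC value.

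**Figure D3:**
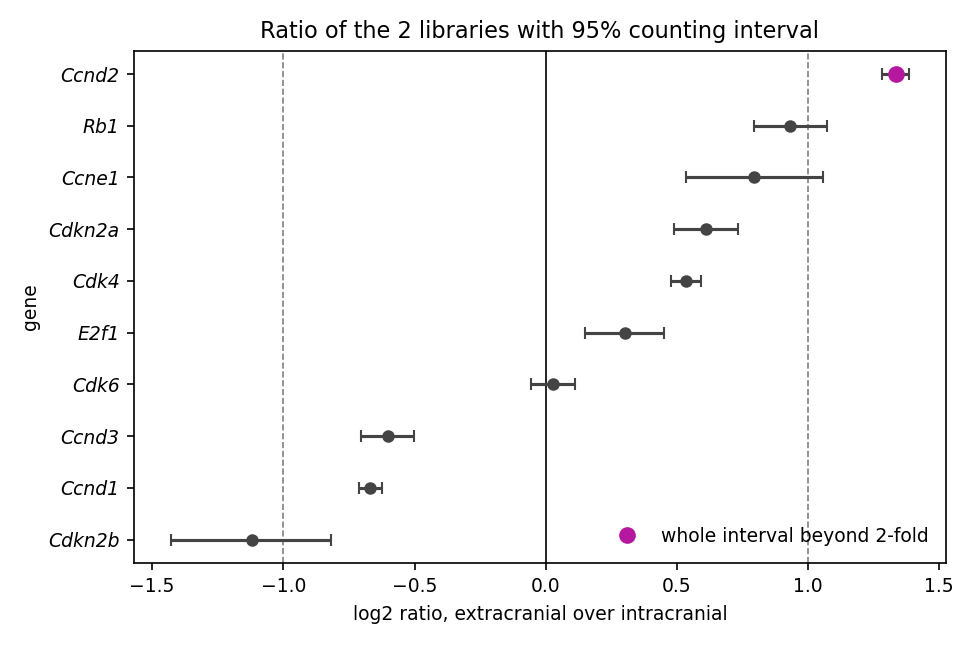
Log2 ratio EC over IC of each of the 10 genes (points) with exact 95% counting intervals (bars), sorted; dashed lines mark 2-fold and 1 library was measured per location. Ccnd2 alone has its interval past a dashed line (1.28 to 1.38), Cdkn2b (-1.12), Rb1 (0.93) and Ccne1 (0.80) have intervals that cross one, and Cdk6 sits on 0 at 0.03.

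For 9 of the 10 genes the ratio differed from an equal one beyond counting error, the only error these intervals cover. Of these, 6 were higher in the EC library (Ccnd2, Cdk4, Cdkn2a, Rb1, Ccne1 and E2f1) and 3 lower (Ccnd1, Ccnd3 and Cdkn2b). An interval apart from an equal ratio was found for 61.4% of all genes, higher in the EC library for 29.2% and lower for 32.2%. That share takes in genes with as few as 10 counts over both libraries, where intervals are wide. It is therefore not matched for counts to the 10 genes or to the lists below. The median log2 ratio of the 10 genes was 0.42, beside -0.04 for all genes tested. Proliferation genes had a higher median still, 0.51, and the whole interval was higher in the EC library for 12 of 12, from 0.28 (Bub1) to 0.78 (Birc5), beside 29.2% of all genes. Mki67, the gene of the proliferation marker Ki67, had 3149 and 3527 counts (0.54, 0.47 to 0.61). With the summed counts of these 12 genes as the denominator, every ratio dropped by 0.51 on the log2 scale. The EC excess was then 0.82 for Ccnd2, 0.42 for Rb1, 0.28 for Ccne1, 0.10 for Cdkn2a and 0.02 for Cdk4, while Cdk6 (-0.48) and E2f1 (-0.21) came out lower, Ccnd1 stood at -1.18, Ccnd3 at -1.11 and Cdkn2b at -1.63. For Cdk4 and Cdkn2a that remainder was smaller than their counting error.

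The remaining genes of the pathway were read from 8 lists of 60 genes, 59 of which had enough counts. Of these 59, 1 was called beyond 2-fold, a smaller share than the 15.6% of all genes. That gene was E2f8, an atypical E2F that represses E2F targets. It had 317 counts (9.12 CPM) in the IC library and 882 counts (33.0 CPM) in the EC library, a log2 ratio of 1.85 (1.67 to 2.04). This call too covers counting error only. The interval widened for variation between animals, under which Ccnd2 was lost, was not run for these lists. The call of E2f8 is therefore to be taken as no firmer than that of Ccnd2. The other 8 genes in the list of E2F and DP factors ranged from -0.21 (Tfdp1) to 0.34 (Tfdp2), and the median of the list was 0.12.

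CDK inhibitors outside the 10 genes differed little. Cdkn1a, a p53 target that encodes p21, had 11248 and 8660 counts and a log2 ratio of 0.00 (-0.04 to 0.04), the closest to equal of the 5. Cdkn1b, the gene of p27, was lowest at -0.43 (-0.53 to -0.34) and Cdkn2c, a further INK4 gene, was highest at 0.15 (0.02 to 0.29). The pocket proteins related to RB were at 0.28 (0.11 to 0.44, Rbl1) and -0.08 (-0.23 to 0.08, Rbl2), against 0.93 for Rb1. For the 6 genes of cyclin and p27 turnover the median was -0.24, from Fbxw7, which marks cyclin E for breakdown, at -0.57 (-0.75 to -0.40) to Cks1b, a cofactor in the breakdown of p27, at 0.62 (0.51 to 0.73).

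Later cyclins and kinases had a median of 0.21 over 10 genes, with Ccne2, the paralog of Ccne1, lowest at -0.45 (-0.76 to -0.14) and Ccnb2 highest at 0.68 (0.53 to 0.83). Ccne1 and Ccne2 thus lay on opposite sides of an equal ratio. The 14 replication genes that E2F factors are known to control had a median of 0.33, with Cdt1, a licensing factor, highest at 0.78 (0.64 to 0.92) and Rrm2 lowest at -0.10 (-0.22 to 0.02). In 11 of the 14 the whole interval lay above an equal ratio and in 0 below it, beside 29.2% and 32.2% of all genes. Beyond 2-fold 0 of the 14 were called, beside 15.6% of all genes. Again these shares of all genes are not matched for counts.

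**Figure D4:**
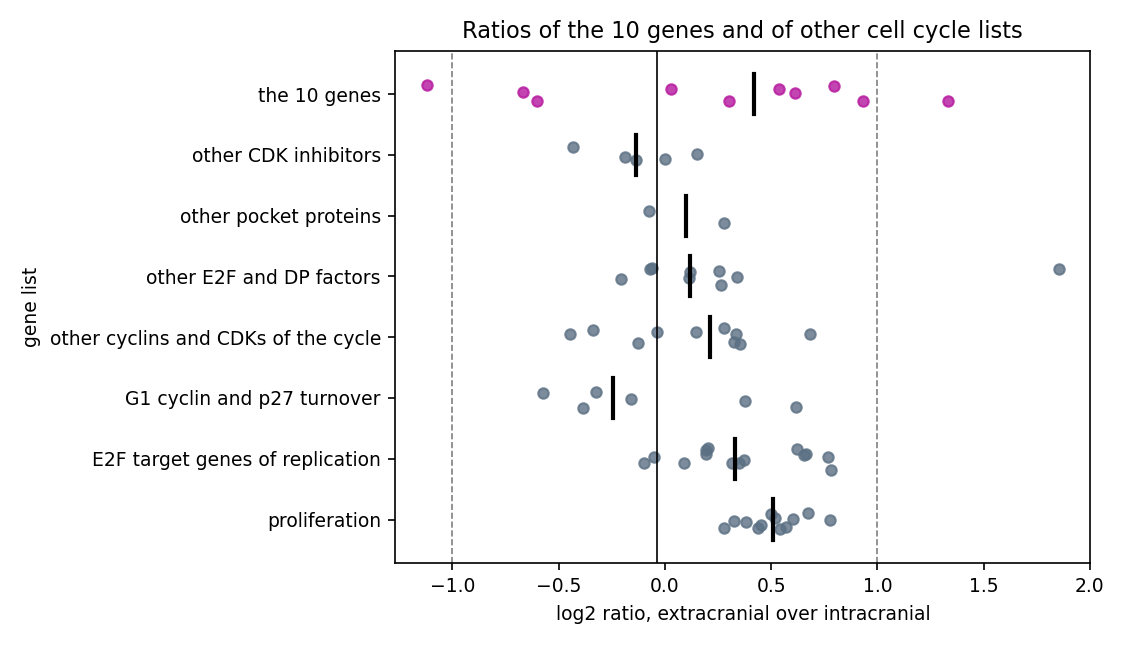
Log2 ratio EC over IC of each gene (points) in the 10 genes and in 7 other cell cycle lists, with the list median (thick bar), the median of all genes tested (solid line, -0.04) and 2-fold (dashed lines); vertical scatter within a row is for display. Ccnd2 (1.33), Cdkn2b (-1.12) and E2f8 (1.85) lie past the dashed lines, and the proliferation row sits wholly right of 0 with a median of 0.51.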

How the data were processed

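Poly(A) RNA of 2 tumors was sequenced from directional libraries as single reads. The authors aligned reads with STAR 2.7.9a to the mouse genome (GRCm39, per the submitters' processing notes) with Ensembl gene models, and deposited raw read counts per gene from featureCounts, with no normalization. Use of strand and of reads with several alignments was not stated, so overlapping or near-identical genes are uncertain. Samples were grouped by the localization label. Symbols (93.99% of 55416 IDs), exon lengths and chromosomes came from GENCODE release M21 (GRCm38), which is older than the authors' annotation, and promoters from RefSeq (GRCm38.p6).

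CPM used TMM library sizes (edgeR 4.0.16, R 4.3.3), with factors of 1.006 and 0.994. Genes needed a summed count of 10 to be tested, and a gene was called where its exact 95% interval lay wholly beyond 2-fold. Counts of 3 or fewer were set to 3 for ratios, and the interval used the counts as deposited. The quasi-likelihood test of edgeR needs replicates and could not be fitted. The code was tested on simulated data. Genes were named if they were among the 10, were called in another pathway list, or were the highest or lowest in a list with no call; Smarcb1, Mki67, Tfdp1, Tfdp2, Cdkn1a and the overlapping genes were named besides, after their values were seen. The 10 genes and the lists were chosen with earlier results of these data known, and the extracranial marker list and the overlap check after the values were seen. Alternatives covered DESeq2 (1.42.0) size factors and those given in the closing section.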

Additional observations from a re-analysis of the deposited data

How the results depend on the processing

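No paired analysis was possible because there was a single library for every location, and for the same reason no library could be left out in turn. The DESeq2, total count, upper quartile and protein-coding TMM scalings moved every log2 ratio by -0.02 to 0.04, and Ccnd2 was the gene called among the 10, and E2f8 among the other lists, under each of them that was run. Under no count filter, 100 or more counts, a prior count of 2 or counts set to 3 in the interval too, the count for the 10 genes was also 1. It was 0 beyond 4-fold and 0 when the interval was widened for an assumed variation between animals (coefficient 0.4), in which Ccnd2 was lost, 2 with the ratio alone beyond 2-fold (Ccnd2 and Cdkn2b), and 9 where the interval had only to exclude an equal ratio. Over all genes the 3434 calls became 1581, 1344, 6063 (2317 higher, 3746 lower) and 13500 under these same settings. Each setting is looser or stricter by construction. With the proliferation genes as denominator, Cdk6 and E2f1 changed sign. Of the 10 places in the order of levels, 4 (IC) and 3 (EC) were the same for CPM without length, and 6 and 4 per kilobase of the longest coding transcript. The last setting, the equal-ratio rule and the counts set to 3 in the interval were chosen after seeing the data. Ccne1 and Cdkn2b, with 123 to 347 counts, had the widest intervals.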
